A study of Mus musculus with 8 samples.

Results

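Titin, the proteins it is anchored to at the Z-disc and the M-band, and the C-zone protein that binds myosin between them were followed as 9 genes: Ttn, Actn2, Nebl, Ldb3, Tcap, Csrp3, Myoz2, Myom1 and Mybpc3. They were chosen by name, with earlier results of these data known, and for each symbol the transcript entry with the most reads was taken. They were 9 of 20701 gene symbols in the count table, and 8 of the 9 had enough reads to be tested among 14075 genes. RNA had been sequenced from the pharyngeal mesoderm and the heart, dissected together, of C57BL/6 mouse embryos at E8.75 (6 somites), 1 embryo per library. One group was 4 wild-type embryos and the other was 4 Isl1-/- embryos, a germline knockout that removes the LIM-homeodomain factor Isl1 from every cell of the embryo and not from the heart progenitors alone. The labels name no treatment for either group. Nothing in the sources used here names litters, and the spread behind every p-value is that between these 8 embryos.

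The sarcomere is the contractile unit of heart muscle, and its ends are the Z-discs. Actin filaments are held in the Z-disc by α-actinin and its partners, myosin filaments are held at the centre of the sarcomere in the M-band, and each titin molecule runs from the one to the other as a molecular spring. At the 6-somite stage the heart tube is assembling its first striated myofibrils, while second heart field cells in the pharyngeal mesoderm, many of which express Isl1, are still being added to it.

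Isl1 itself (NM_021459, chromosome 13, 117088478 to 117099896, mm9) was at 9.72, 9.76, 26.9 and 23.3 CPM (TMM-scaled counts per 1000000 reads) in the wild types, given here and below in the order of embryos 1 to 4. The Isl1-/- embryos had 2.32, 2.16, 1.78 and 2.40 CPM, so each library matched its label. Total counts ran from 23480470 to 26153039 in the wild-type and from 18916452 to 25047013 in the knockout libraries. No 2 libraries held identical values. Wild-type embryo 3 stood apart: its summed erythroid markers were the lowest of all libraries (360 CPM) and its second heart field and pharyngeal markers the highest (216 CPM). Reads of Y-linked genes were present in wild-type embryo 4 and in knockout embryos 1, 3 and 4. Knockout embryo 2 is labelled total RNA and the other libraries polyA RNA.

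Of the 8 genes tested, 5 fell in the knockout and 0 rose at an FDR of 0.05 (edgeR quasi-likelihood test, Benjamini-Hochberg over all genes). Myom1, Mybpc3, Actn2, Ldb3 and Nebl fell to between 40.2% and 58.1% of their wild-type means, and Ttn, Tcap and Csrp3 stood at 38.4%, 53.3% and 60.8% without passing the test. No member had a value above 0 under TMM scaling, and 8 of 8 were lower at an unadjusted p under 0.05 (10.1% of all genes), whereas relative to the filament genes described below Nebl, Ldb3 and Csrp3 turned to values above 0 that were not called. Of all genes tested, 0.867% were called lower and 0.107% higher. The median log2 fold change was -0.96 over the 8 members and 0.01 over all genes. Every knockout embryo lay under every wild-type embryo in 6 of the 8, against 6.33% of all genes. The median over the members stayed between -1.09 and -0.87 when each embryo was left out in turn. Without wild-type embryo 3, 8 of 8 passed, in a fit that called 2.71% of all genes lower, and without any 1 of the 4 knockout embryos or of wild-type embryos 1, 2 and 4 the count was 4 or 5.

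**Figure D1:**
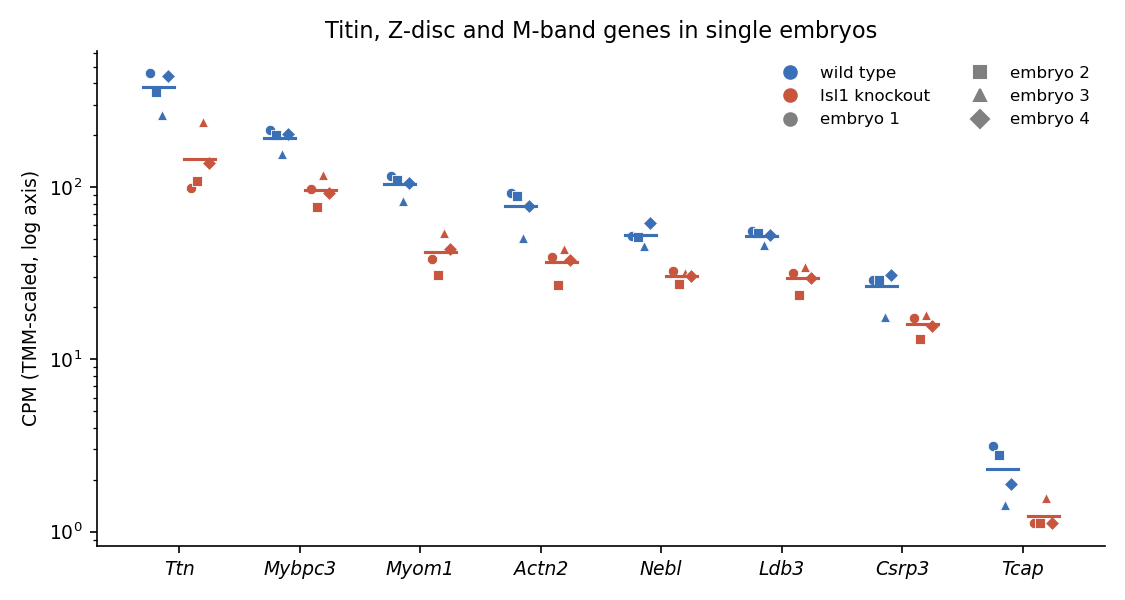
TMM-scaled CPM of the 8 tested genes in each embryo on a shared log axis, with points for single embryos and a line for each genotype mean (n = 4). Knockout points lie under all wild-type points for 6 genes, and for Tcap and Csrp3 knockout embryo 3 lies above wild-type embryo 3.

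The markers of heart muscle moved with these genes. The 6 markers listed (Tnnt2, Myl7, Myl4, Actc1, Tnni1, Nkx2-5) all fell past the FDR under TMM scaling, and their summed level was 1681 to 2645 CPM in the wild-type and 1057 to 1438 CPM in the knockout embryos. Wild-type embryo 3 had the lowest wild-type sum, 1681 CPM. In RNA from whole dissected tissue, fewer cardiomyocytes and less of a transcript per cardiomyocyte cannot be told apart. Skeletal muscle was near absent, with Myod1, Myog, Ckm and Myh3 all under 0.4 CPM in each library. The skeletal list's only abundant gene was Acta1, which embryonic heart also expresses (log2 fold change -0.86, edgeR FDR 0.0587), and Myf5, its other tested gene, stood at 0.75 (FDR 0.444). Of 4 smooth muscle markers 2 fell, Acta2 (-0.77, edgeR FDR 0.048) and Cnn1 (-1.12, FDR 0.00212), with summed levels of 566 to 963 and 414 to 532 CPM. Acta2 made up most of these sums, and which cells its reads came from was not tested. Among 5 second heart field and pharyngeal markers Mef2c fell (-0.73, FDR 0.00985), and the sums were 141 to 216 and 99.4 to 172 CPM. Of the 24 markers of endothelium, erythroid cells, endoderm, neural tissue and neural crest, 0 were called by edgeR and 0 by DESeq2, and 0 had an unadjusted p under 0.05 in edgeR. Their summed levels overlapped between genotypes, for example 360 to 2305 against 1223 to 3039 CPM for the erythroid list, and their part in the results was not tested.

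The start regions of these genes are shown here because the genes moved together and because MEF2 and serum response factor, which binds the CArG box, are established regulators of muscle genes. RefSeq windows on GRCm38.p6 (250 bases before to 50 after a transcript start) matched 8 of the 9 symbols, all but Tcap, with 13 windows in all. Both strands were searched. The MEF2 motif was found in 3 of the 8 genes and in 3.19% of 32851 windows of the same length across all genes, and the CArG box in 3 of the 8 and in 1.63% of windows. Below, capitals mark the MEF2 motif in the first 3 and the CArG box in the last 2. The windows are chr2:76982498-76982797 (minus strand) for Ttn, chr2:91117894-91118193 (plus) for Mybpc3, chr3:123034938-123035237 (minus) for Myoz2, chr17:71019307-71019606 (plus) for Myom1 and chr14:34588632-34588931 (minus) for Ldb3.
Ttn: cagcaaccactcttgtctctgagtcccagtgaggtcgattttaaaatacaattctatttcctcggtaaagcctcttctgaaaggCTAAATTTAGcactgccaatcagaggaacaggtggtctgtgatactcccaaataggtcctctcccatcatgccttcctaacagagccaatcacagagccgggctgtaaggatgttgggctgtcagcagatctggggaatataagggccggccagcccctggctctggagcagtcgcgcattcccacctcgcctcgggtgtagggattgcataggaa
Mybpc3: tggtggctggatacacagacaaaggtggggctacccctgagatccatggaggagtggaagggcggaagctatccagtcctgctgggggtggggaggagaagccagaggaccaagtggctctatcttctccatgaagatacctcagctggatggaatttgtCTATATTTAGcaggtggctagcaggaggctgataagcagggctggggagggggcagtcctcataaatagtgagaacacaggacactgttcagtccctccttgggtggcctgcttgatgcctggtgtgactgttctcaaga
Myoz2: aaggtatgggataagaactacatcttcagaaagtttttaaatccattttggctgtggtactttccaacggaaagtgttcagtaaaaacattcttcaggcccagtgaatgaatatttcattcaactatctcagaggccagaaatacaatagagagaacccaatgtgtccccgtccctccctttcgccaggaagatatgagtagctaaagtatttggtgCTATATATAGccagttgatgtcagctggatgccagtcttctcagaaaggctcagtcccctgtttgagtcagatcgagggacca
Myom1: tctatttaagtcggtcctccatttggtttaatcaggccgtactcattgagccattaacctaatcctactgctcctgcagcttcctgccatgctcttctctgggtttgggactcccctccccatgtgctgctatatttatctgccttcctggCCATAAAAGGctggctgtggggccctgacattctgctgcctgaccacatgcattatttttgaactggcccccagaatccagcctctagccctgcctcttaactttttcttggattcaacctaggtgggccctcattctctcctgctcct
Ldb3: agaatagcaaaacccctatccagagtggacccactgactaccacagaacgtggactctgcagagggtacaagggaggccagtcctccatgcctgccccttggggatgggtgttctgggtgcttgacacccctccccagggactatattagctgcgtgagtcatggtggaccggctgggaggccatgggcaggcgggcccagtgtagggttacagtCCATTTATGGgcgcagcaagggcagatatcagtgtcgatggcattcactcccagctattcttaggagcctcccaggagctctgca

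The motif began and ended at -166 and -157 from the start in Ttn, at -90 and -81 in Mybpc3 and at -33 and -24 in Myoz2. The CArG box lay at -99 to -90 in Myom1 and at -35 to -26 in Ldb3, and the same Ldb3 bases were counted again in a window that overlaps this one. The third gene with a CArG box was Nebl, in 1 of its 4 windows (-162 to -153). Neither motif was in the windows of Actn2 or Csrp3. The 3 genes with a CArG box (Myom1, Ldb3 and Nebl) were all called lower, as were Mybpc3 with a MEF2 motif and Actn2 with neither, and the uncalled Ttn had a MEF2 motif. Common short motifs were in most members and in most windows of any gene: the E-box CANNTG in 7 of 8 against 72.3% of windows, and GATA in 7 of 8 against 57.9%. TAAT, the core bound by homeodomain proteins, was in 5 of 8 genes against 58.0% of windows. The T-box core GGTGT was in 5 of 8 genes against 41.6%, AAGTG, a core bound by Nkx2-5, in 4 against 46.4%, and the M-CAT motif CATTCC in 2 against 14.7%. TATAAA, searched on the strand of the gene, was in 0 of the 13 windows against 8.32% of all windows. A gene with several windows has more chances of a match, and a match is a string of letters and not a measured binding site.

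Ttn encodes titin (NM_011652, chromosome 2, 76542037 to 76820604, minus strand, mm9). Its wild-type levels were 457, 358, 261 and 441 CPM, and its knockout levels were 98.5, 108, 238 and 138 CPM. The groups did not overlap, but knockout embryo 3 came close to wild-type embryo 3, the lowest of its group. The means were 379 ± 90.2 and 146 ± 64.0 CPM (SD, n = 4), and the coefficient of variation was 23.8% and 43.9%. The log2 fold change of -1.38 (SE 0.28) was the lowest of the 8 members and stayed just outside the threshold (edgeR FDR 0.0549). Ttn passed in 6 of 17 alternatives, among them without knockout embryo 3 (-1.72, FDR 0.00837) and without wild-type embryo 3 (-1.52, FDR 0.0239). DESeq2 also called it (FDR 0.0054). In the other 11 alternatives Ttn was not called, with an FDR from 0.0501 to 0.18, and the direction did not change.

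The Ttn transcript entry is 101359 bases long. As a measure of long transcripts as a class, 280 other genes with entries of 10 kb or longer had a median log2 fold change of 0.05, with 5 called lower and 0 higher by edgeR. They took 3.12% to 3.60% of the counts in the wild-type and 3.35% to 3.64% in the knockout embryos.

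Actn2 encodes the muscle α-actinin that cross-links actin filaments of opposite polarity in the Z-disc and binds the amino-terminal repeats of titin (NM_033268, chromosome 13, 12361693 to 12433027, minus strand). Wild-type embryos had 92.4, 89.1, 50.3 and 77.4 CPM, against 39.3, 27.1, 43.6 and 37.6 CPM for the knockouts. No value overlapped, and wild-type embryo 3 lay nearer to the knockout embryos than to the rest of its group. Mean Actn2 thus fell from 77.3 ± 19.1 CPM to 36.9 ± 7.0 CPM (SD, n = 4). On the log2 scale this was -1.07 (SE 0.20, edgeR FDR 0.0402). This call was the least stable of the 5: it was lost in 11 of 17 alternative settings, where the FDR ran from 0.0577 to 0.142 and the direction did not change. Those 11 included leaving out any single embryo other than wild-type embryo 3, whose removal gave -1.23 (FDR 0.00406).

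Nebl encodes nebulette, which binds actin where the thin filament enters the Z-disc (NM_028757, chromosome 2, 17265536 to 17653091, minus strand). The locus also makes a LIM-domain protein, and which of the products the single table entry of 2971 bases stands for was not established. Nebl read 51.9, 51.3, 45.5 and 61.8 CPM with Isl1 and 32.7, 27.5, 31.6 and 30.4 CPM without it. All knockout values lay well under the lowest wild-type value, in a narrow band with an SD of 2.26 CPM. The mean fell to 58.1% of the wild-type mean (log2 fold change -0.78, SE 0.10, edgeR FDR 0.00628).

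Ldb3 encodes the PDZ and LIM domain protein also called Cypher or ZASP, which binds α-actinin and holds the Z-disc together under load (NM_011918, chromosome 14, 35339885 to 35401867, minus strand). Wild types gave 55.3, 53.9, 45.8 and 52.9 CPM where knockouts gave 31.7, 23.7, 34.2 and 29.5 CPM. The gap between the groups was wider than the spread within either, 4.21 CPM (SD) in the wild-type and 4.48 CPM in the knockout. Ldb3 fell by 0.80 on the log2 scale (SE 0.12, edgeR FDR 0.00985).

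Csrp3 encodes muscle LIM protein, which binds α-actinin and telethonin at the Z-disc (NM_013808, chromosome 7, 56085768 to 56103400, minus strand). Its values of 28.8, 28.8, 17.5 and 30.8 CPM among wild types faced 17.4, 13.2, 18.1 and 15.6 CPM among knockouts. Wild-type embryo 3 fell among the knockout embryos, and the other wild-type embryos lay clear of them. Csrp3 did not pass, at a log2 fold change of -0.72 (SE 0.18, edgeR FDR 0.0887), and without wild-type embryo 3 it was -0.87 (FDR 0.00709). DESeq2 gave an FDR of 0.00541. In the other 15 of 17 alternatives Csrp3 was not called, with an FDR from 0.0632 to 0.266.

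Tcap encodes telethonin, the small protein that joins the ends of a pair of titin molecules at the edge of the Z-disc (NM_011540, chromosome 11, 98245125 to 98246267, plus strand). It was weakly expressed. Wild-type libraries held 75, 63, 34 and 50 reads of it, knockout libraries 29, 27, 30 and 23. Scaled to 1.57 CPM, knockout embryo 3 lay just above wild-type embryo 3 at 1.43 CPM, and the remaining wild-type values were 1.90 to 3.13 CPM. At a log2 fold change of -0.91 (SE 0.28) Tcap had an edgeR FDR of 0.147. It passed in 1 of 17 alternatives, without wild-type embryo 3 (-1.08, FDR 0.0496).

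Myoz2 encodes calsarcin-1, a Z-disc protein that binds calcineurin and α-actinin (NM_021503, chromosome 3, 122709124 to 122737908, minus strand). The wild-type libraries held 4, 1, 0 and 6 reads of it and the knockout libraries 0, 1, 1 and 3, so it was too sparse to test. Allowing for depth, the ratio of knockout to wild-type reads was 0.509, with an exact 95% interval of 0.139 to 1.59 that covers counting error only. A difference between the genotypes was not detectable at this depth.

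Myom1 encodes myomesin, which cross-links titin and myosin filaments in the M-band (NM_010867, chromosome 17, 71368861 to 71476196, plus strand). Myom1 was at 116, 110, 83.2 and 106 CPM across the wild types but at 38.2, 30.9, 54.4 and 43.5 CPM across the knockouts. The highest knockout value lay far under the lowest wild-type value. Its means were 104 ± 14.3 CPM and 41.7 ± 9.91 CPM (SD, n = 4). Myom1 fell by 1.32 on the log2 scale (SE 0.17, edgeR FDR 0.00495), the most of the called members.

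Mybpc3 encodes cardiac myosin-binding protein C, which sits in stripes on the myosin filament, in the C-zone between Z-disc and M-band, and tunes the myosin heads (NM_008653, chromosome 2, 90958301 to 90976673, plus strand). Its 4 wild-type values were 215, 200, 155 and 204 CPM, its 4 knockout values 97.9, 76.6, 117 and 92.1 CPM. The groups were separate, and again wild-type embryo 3 was the lowest and knockout embryo 3 the highest of its group. Mybpc3 fell to 49.5% of its wild-type mean (log2 fold change -1.01, SE 0.13, edgeR FDR 0.00669). Myom1, Mybpc3, Ldb3 and Nebl kept direction and call in 17 of 17 alternatives.

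**Figure D2:**
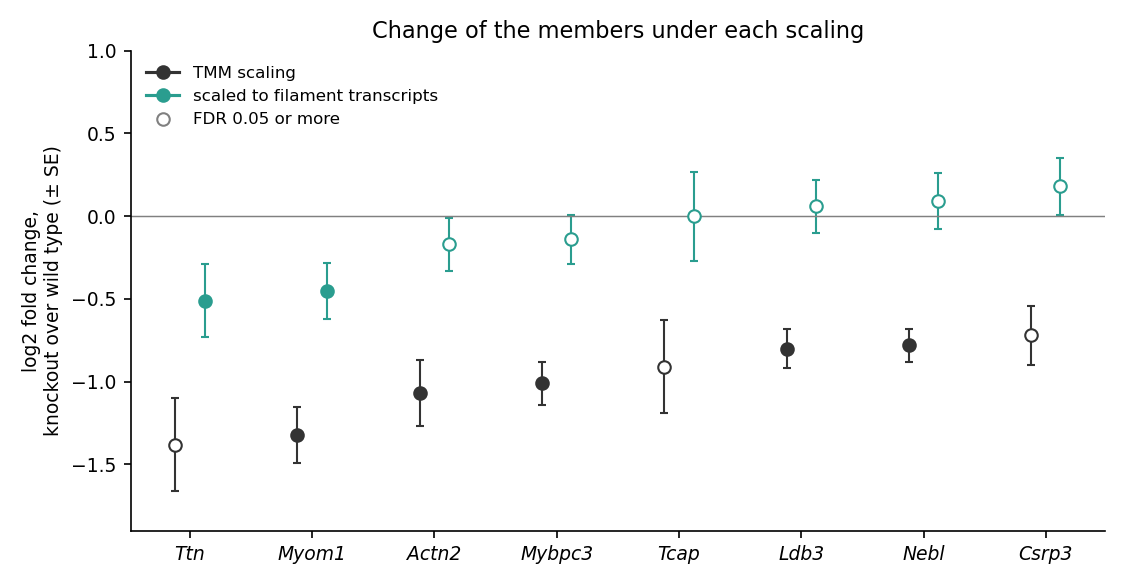
Log2 fold change (knockout minus wild-type) with its SE for the 8 tested genes, under TMM scaling and relative to 12 thick and thin filament genes, with filled symbols for an FDR under 0.05. Under TMM scaling all 8 lie under 0, and relative to the filament genes only Ttn and Myom1 are called, while Nebl, Ldb3 and Csrp3 turn to small values above 0.

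The embryos ranked almost alike in every member. Wild-type embryo 3 was the lowest wild-type embryo in 8 of 8 genes, knockout embryo 2 the lowest knockout embryo in 7 and knockout embryo 3 the highest knockout embryo in 7. The mean centred log2 CPM over the 8 genes was 0.70, 0.60, 0.09 and 0.59 for the wild types. For the knockouts it was -0.52, -0.79, -0.18 and -0.50. The sign split the genotypes, with wild-type embryo 3 and knockout embryo 3 nearest to each other. Isl1 did not order the wild-type embryos in the same way: embryo 3 had the highest Isl1 (26.9 CPM) and the lowest member mean, while embryos 2 and 4 had nearly equal member means at 9.76 and 23.3 CPM of Isl1.

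The genes whose log2 CPM tracked this mean most closely across the 8 embryos were Hspb7 (Pearson r 0.994), Casz1 (0.990), Myh6 (0.990), Ppp1r17 (0.987) and Myl3 (0.987). Hspb7 is a small heat shock protein of heart muscle, Casz1 a zinc-finger factor of the developing heart, Myh6 the atrial-type myosin heavy chain and Myl3 a myosin light chain. These correlations describe 8 points that share genotype and library. All 5 genes fell in the knockout themselves, which follows from picking them by a mean whose sign splits the genotypes. Their log2 fold changes ran from -2.10 (Ppp1r17, at 3.73 CPM in the wild-type) to -0.88 (Casz1).

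Levels between genes were compared as RPKM, read counts scaled to library depth and to each kilobase of transcript. Mybpc3 was the most abundant member in the wild-type embryos (27.3 ± 3.64), followed by Csrp3 (16.9 ± 3.89) and Actn2 (15.1 ± 3.61), which lay within each other's SD. Myom1 (10.8 ± 1.42) and Nebl (10.3 ± 1.47) came next and did not differ beyond their spread, then Ldb3 (6.01 ± 0.459), Ttn (2.17 ± 0.524) and Tcap (1.42 ± 0.46). Myoz2 was last at 0.0561 RPKM. In the knockout the order was Mybpc3 (14.1 ± 2.49), Csrp3 (10.7 ± 1.53), Actn2 (7.54 ± 1.47), Nebl (6.22 ± 0.522), Myom1 (4.53 ± 1.08), Ldb3 (3.58 ± 0.561), Ttn (0.868 ± 0.379) and Tcap (0.789 ± 0.141). One pair of neighbours changed places: Myom1 ranked above Nebl in the wild-type and below it in the knockout. The values of Ttn and Tcap overlapped in both genotypes. The RPKM of Ttn depends on its entry: that of 101359 bases used here held 49326 reads over all embryos. The second entry, of 81737 bases, held 48601. Ttn's level per length, and its share below, are therefore lower than with the second entry.

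The balance between the structures was read as each gene's share of the summed RPKM of the 9 members. Z-disc genes (Actn2, Nebl, Ldb3, Tcap, Csrp3 and Myoz2) held 55.0%, 56.3%, 53.0% and 56.2% of the sum with Isl1 and 61.7%, 60.6%, 57.0% and 60.0% without it. Myom1, the M-band gene, held 12.1%, 12%, 12.7% and 11.5% among wild types, compared with 8.31%, 8.65%, 10.4% and 9.89% among knockouts. The Z-disc share was higher in all 4 knockout embryos than in any wild-type embryo, and the M-band share lower, although every part of the sum was itself lower in the knockout means. The Csrp3 share lay at 16.4% to 20.3% in the wild-type and 21.1% to 23.1% in the knockout embryos, without overlap. Its mean share rose the most of the Z-disc genes, from 18.5% to 22.1%, while that of Actn2 went the other way, from 16.7% to 15.5%. How often other groups of genes separate the genotypes in this way was not computed. Shares of Mybpc3 (30.4% ± 1.17 and 29.1% ± 0.733) and Ttn (2.39% ± 0.26 and 1.77% ± 0.543) overlapped, as did those of Actn2, Nebl, Ldb3 and Tcap. Shares sum to a fixed total, so a lower share of one gene raises the others.

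**Figure D3:**
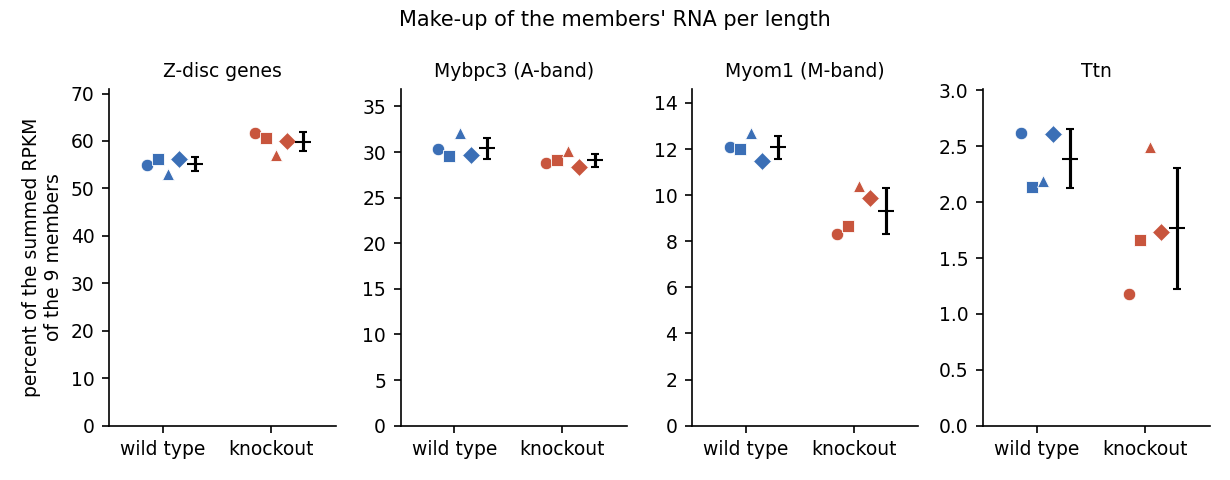
Share of the summed RPKM of the 9 members taken by the Z-disc genes, Myom1 of the M-band, Mybpc3 of the C-zone and Ttn, with a point per embryo and the mean of each genotype (n = 4). Knockout points are all above the wild-type points for the Z-disc genes and all below them for Myom1, and overlap for Mybpc3 and Ttn.

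Whether the members moved more than the contractile filaments was asked by scaling each library to 12 thick and thin filament genes (Myh6, Myh7, Myl2, Myl3, Myl4, Myl7, Actc1, Tnnt2, Tnni1, Tnni3, Tnnc1 and Tpm1). Of these 12, 10 fell past the FDR under TMM scaling, with log2 fold changes from -1.18 to -0.50 and a median of -0.89. Their geometric mean came to 231, 230, 153 and 217 CPM for the wild types, against 122, 93.4, 129 and 106 CPM for the knockouts. Again wild-type embryo 3 was the lowest of its group. On the filament scale the median of all genes moved to 0.87, and edgeR called 89.0% of genes higher and 0.142% lower, so values on this scale read as change relative to the filament transcripts. The median over the 8 members was -0.07, and edgeR called 2 lower and 0 higher (2 and 0 also at an unadjusted p under 0.05). With so many genes called, the edgeR FDR on this scale lay close to the unadjusted p and adjusted little. It was 0.0461 at a p of 0.0409 for Ttn and 0.0215 at a p of 0.0181 for Myom1.

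Myom1 stayed lower than the filament genes. Its log2 ratio to their geometric mean was -1.0, -1.07, -0.88 and -1.03 for the wild types but -1.67, -1.60, -1.25 and -1.29 for the knockouts. It was the only one of the 8 members whose ratios did not overlap between the genotypes. The share of all genes without overlap in this ratio was not computed. On this scale the filament genes themselves ran from -0.33 (Myh7) to 0.38 (Tpm1), and Myom1 was not tested against any single one. The fitted difference of Myom1 was -0.45 (SE 0.17, edgeR FDR 0.0215). Among the fits with 1 embryo left out, the call was lost without knockout embryo 1 (-0.38, FDR 0.0700) and at the threshold without knockout embryo 2 (-0.40, FDR 0.05).

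Ttn had log2 ratios of 0.98, 0.64, 0.77 and 1.02 with Isl1, against -0.31, 0.21, 0.88 and 0.38 without it. Knockout embryo 3 lay inside the wild-type range and the other knockout embryos below it. The fitted difference of -0.51 (SE 0.22) passed narrowly (edgeR FDR 0.0461). It was lost without knockout embryo 1 (-0.34, FDR 0.140), 2 (-0.46, FDR 0.0958) or 4 (-0.52, FDR 0.0795) and without wild-type embryo 1 (-0.47, FDR 0.0996) or 4 (-0.45, FDR 0.108).

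For the remaining 6 tested members no difference from the filament genes was detected. Their differences on this scale were -0.17 (Actn2, SE 0.16), -0.14 (Mybpc3, SE 0.15), -0.00 (Tcap, SE 0.27), 0.06 (Ldb3, SE 0.16), 0.09 (Nebl, SE 0.17) and 0.18 (Csrp3, SE 0.17), with edgeR FDR from 0.308 to 0.996. A difference of the size of these errors could not be seen.

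**Figure D4:**
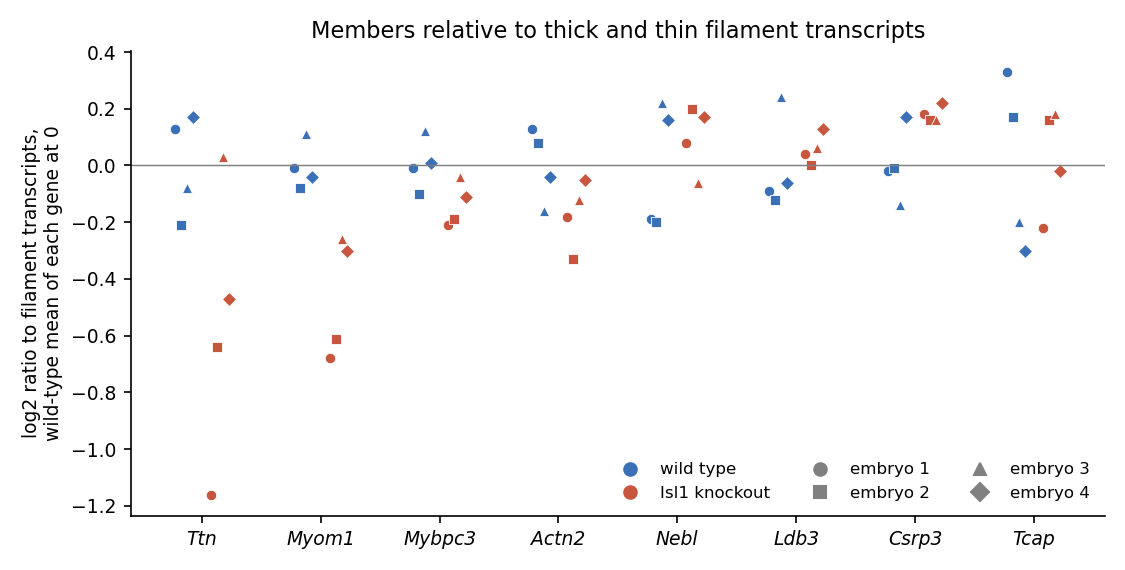
Log2 ratio of each member to the geometric mean of the 12 filament genes in each embryo, drawn as deviation from that gene's wild-type mean (n = 4 per genotype). The 4 knockout points of Myom1 lie below all wild-type points, 3 of the 4 knockout points of Ttn do, and the points of the other genes overlap.

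The transcript entries of a gene share reads, so they were set beside each other only as entries. For Ttn, the entry used here is 19622 bases longer than the second one (NM_028004, 81737 bases). It held 256, 180, 55 and 114 more reads than the second in the wild types, and 25, 23, 48 and 24 more in the knockouts. As a percentage of the second entry's reads, the excess was 2.39%, 2.28%, 0.898% and 0.993% with Isl1, against 0.991%, 0.892%, 1.07% and 0.857% without it. Wild-type embryos 1 and 2 were high and the other 6 embryos lay together. The genotypes did not separate in the exact two-sided permutation test (p = 0.2), whose smallest possible p with 4 against 4 is 0.0286. Whether the second entry lies wholly within the first was not tested, so the excess is a difference of entries and not a count over particular bases.

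The longer and the shorter Myom1 entry (NM_001083934) had log2 fold changes of -1.30 each in a fit of all entries (edgeR FDR 0.00403 and 0.00399). Ldb3 has 7 entries. The 5 long ones (4720 to 5024 bases) had log2 fold changes of -0.79 each in the same fit (edgeR FDR 0.00551 to 0.0083), and the short ones of 1612 and 1493 bases stood at -0.66 (FDR 0.0754) and -0.61 (FDR 0.0964). The RPKM of the shortest was 62.2%, 64.5%, 55.4% and 56.8% of that of the longest with Isl1, against 68.9%, 75.3%, 71.5% and 57.5% without it. The groups overlapped (exact permutation p = 0.1143). Over the 3 comparisons of entries made, of Ttn, Myom1 and Ldb3, the lowest adjusted p was 0.3.

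Beyond the members, 28 further Z-disc and M-band genes were listed, of which 24 were tested. Of these 6 fell and 0 rose at the edgeR FDR (17 lower and 0 higher at an unadjusted p under 0.05), against 0.867% of all genes lower at the FDR and 10.1% lower and 7.37% higher at the unadjusted p. The list's median log2 fold change was -0.46. DESeq2 called 15 lower and 0 higher, and 3.29% of all genes lower. The edgeR count was 11 without wild-type embryo 3 (2.71% of all genes lower), and 3 without knockout embryo 4 (0.472%) or without wild-type embryo 1 (0.493%). Relative to the filament genes, 1 partner (Synpo2, -0.49, FDR 0.0251) was called lower and 10 higher, among them Palld (0.48, FDR 0.0196), on a scale where 89.0% of all genes were called higher. In 15 of the 28 the knockout embryos all lay under the wild-type embryos, against 6.33% of all genes tested.

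Synpo2, an actin-binding protein of the Z-disc also called myopodin, showed the largest decrease of the list, from 18.0 to 22.8 CPM in the wild-type to 6.96 to 9.10 CPM in the knockout embryos (log2 fold change -1.35, SE 0.12, edgeR FDR 0.00186). Smpx, a small muscle protein, fell by 1.22 on the log2 scale (FDR 0.0113). Xirp1, the actin-binding Xin protein of the developing heart, fell by 1.05 (FDR 0.00389). Ankrd1, a stress-responsive ankyrin repeat protein that binds the spring region of titin, fell from between 103 and 138 CPM to between 52.1 and 70.2 CPM (-1.0, FDR 0.0032). Trim55, a ubiquitin ligase that associates with titin near the M-band, fell by 0.86 (FDR 0.0480), and Palld, an actin scaffold found in many cell types, fell by 0.39 (FDR 0.0197).

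The 3 most abundant partners that were not called were Fhl1 (-0.20, FDR 0.128), Capzb, the β subunit of the protein that caps actin filaments (0.01, FDR 0.921), and Flnc, the muscle filamin (-0.37, FDR 0.0814). Myot, Mypn, Ankrd2 and Xirp2 had too few reads to be tested.

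A list of 20 relatives of the members from the same gene families, many of them expressed outside heart muscle, was set beside them: 16 were tested, and 2 fell and 0 rose at the edgeR FDR, where 0.867% of all genes were lower. The median log2 fold change over the 16 was -0.11. At an unadjusted p under 0.05 edgeR gave 6 lower and 1 higher, against 10.1% and 7.37% of all genes. DESeq2 called 3 lower and 0 higher at its FDR, against 3.29% of all genes lower. On the filament scale 0 were called lower and 10 higher, where 89.0% of all genes were higher. Under TMM scaling Pdlim5, a PDZ-LIM relative of Ldb3, fell from between 103 and 112 CPM to between 76.3 and 81.2 CPM (-0.44, FDR 0.00447). Pdlim3, which binds the muscle α-actinin, fell by 0.82 on the log2 scale (FDR 0.0204). Relative to the filament genes they stood at 0.42 (FDR 0.0600) and 0.06 (FDR 0.794). The count was 1 without any single embryo other than wild-type embryo 3.

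Actn1 and Actn4, the α-actinins of non-muscle cells, had 237 and 430 CPM in the wild-type and log2 fold changes of -0.02 each (edgeR FDR 0.957 and 0.936) beside the -1.07 of Actn2. Lasp1, the relative of Nebl in non-muscle cells, stood at 0.09 (FDR 0.714) beside -0.78. Csrp1 and Csrp2, LIM proteins of smooth muscle and other tissues, stood at -0.25 (FDR 0.234) and -0.29 (FDR 0.136) beside the -0.72 of Csrp3. Neb, the skeletal giant related to Nebl, had 2.11 CPM in the wild-type and a log2 fold change of 0.33 (FDR 0.422). Mybphl, a relative of Mybpc3 found in heart, was at -0.97 and not called (FDR 0.197). Myom2, Myom3, Myoz3 and Mybpc2 were too sparse to be tested. The difference between a member and its relative was not tested.

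**Figure D5:**
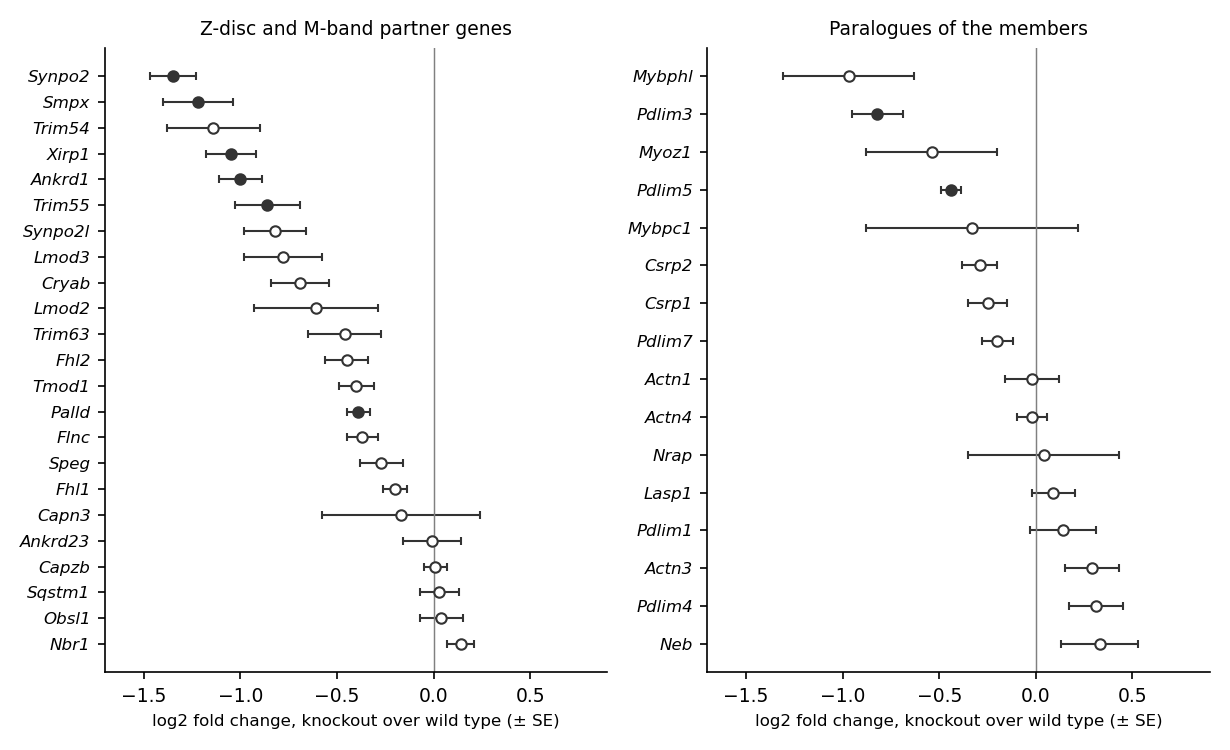
Log2 fold change (knockout minus wild-type, TMM scaling) with its SE of 23 of the 24 tested partner genes and of the 16 tested relatives of the members, with filled points for an FDR under 0.05. Of 24 partners 6 are called and of 16 relatives 2, all of them below 0 on this scale, where relative to the filament genes Palld, Trim55, Pdlim3 and Pdlim5 have values above 0.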

How the data were processed

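RNA sequencing libraries had been made by the authors from 100 ng of RNA per embryo. Reads were mapped to mm9 with STAR (intron length 20 to 500000) and counted with HOMER over exons on both strands, and versions are not given in the sources used here. The deposited counts were raw reads per RefSeq transcript, so reads of antisense or overlapping genes could not be told apart. The deposited RPKM values were computed by the authors with edgeR, and the deposited length column gave transcript length in bases. The deposited columns of the authors' own DESeq2 comparison were not used.

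Groups and replicate numbers came from the sample titles. Of 31507 transcript entries, that with the highest summed count was kept for each of 20701 symbols. Counts were filtered with filterByExpr, scaled by TMM and tested with the edgeR 4.0.16 quasi-likelihood test in R 4.3.3 (two-sided, genotype as the single term). The FDR was the Benjamini-Hochberg value over 14075 genes, with a threshold of 0.05. SE was derived from the F statistic. In a second fit the library size was the geometric mean count of the 12 filament genes. Alternatives were RLE size factors, DESeq2 1.42.0, no filter, the replicate number as a block, each embryo left out, Y-linked expression as a covariate, removal of a length trend, the second transcript entry, limma 3.58.1 on log2(RPKM + 1) or log2(RPKM + 0.1), and the summed filament counts. The fitting code was tested on simulated data. Tables and plots were made with Python 3.11.15, pandas 2.3.3, numpy 2.4.6 and matplotlib 3.10.9. Positions are from GENCODE vM1 on mm9, and start regions from RefSeq on GRCm38.p6, with no conversion between the builds.

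The members, lists and tests were chosen with earlier results of these data known. All 9 members were named, with the called partners and relatives, the 3 most abundant uncalled genes of each list, relatives set beside their member, and the 5 genes closest to the members' mean. One partner gene counts in its list and is not reported here by name. The interval for Myoz2 was computed on reads pooled within each genotype, so it leaves out the spread between embryos. Reads carried no molecular identifiers, so copies of the same molecule could not be told apart.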

Additional observations from a re-analysis of the deposited data

Results flagged for a closer look

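Within each genotype, the highest and lowest embryo of every tested member and of Isl1 were compared with the rest of the group by Dixon's test, over 18 groups of 4 embryos, and chance marks about 1 group in 20. A pair of values stood out. Tcap was at 1.57 CPM in knockout embryo 3 while the other knockout embryos lay at 1.12 to 1.13 CPM, which rests on 23 to 30 reads per library. Csrp3 was at 17.5 CPM in wild-type embryo 3 while the other wild-type embryos lay at 28.8 to 30.8 CPM. In both genes these are the values through which the genotypes overlapped.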

How the results depend on the processing

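No clear pairing of the embryos by replicate number was seen. Whether same-numbered embryos shared a litter or a preparation was not tested. Deviations of same-numbered embryos from their genotype means correlated at 0.109, 0.212, 0.0863 and 0.507, and several embryos correlated better with another number (wild-type 4 with knockout 1 at 0.552). With the replicate number as a block, 4 members were called lower (Ldb3, Mybpc3, Myom1 and Nebl), 1 relative in place of 2, and 1 member relative to the filament genes in place of 2, with 76 genes called in all in place of 137. In the blocked filament fit Myom1 stood at -0.46 (edgeR FDR 0.0916). Leaving out each embryo gave 4 to 8 members lower under TMM scaling, 0 to 2 relative to the filament genes, 3 to 11 partners and 1 to 2 relatives, and 70 to 490 genes in all, the 490 without wild-type embryo 3. DESeq2 called 7 members, 15 partners and 699 genes in all, and removal of the length trend called 6 members and 208 genes. Across the other settings (RLE, no filter, Y-linked covariate, second entry, limma) 4 to 6 members were called lower. The 8 tested members had values below 0 in 17 of 17 alternatives other than filament scaling. With 4 embryos per genotype and 16 reads in all, Myoz2 could not be assessed, and 331 reads limit Tcap.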

Other observations

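Within the genotypes, the genes whose deviations from the genotype means ran closest to those of the members' mean were Ckb (Pearson r 0.991), Maged2 (0.986), Zfp189 (0.985), Smim11 (0.984) and Mtg1 (0.984). Ckb encodes the brain-type creatine kinase, and it stood at 36.5 CPM in the wild-type and 26.2 CPM in the knockout embryos (log2 fold change -0.48, edgeR FDR 0.204). None of the 5 was called between the genotypes by edgeR. They share none of the 5 names found across all 8 embryos. These are the highest correlations of 14075 genes over 8 embryos, and they are given as a description.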
